A study of Mus musculus with 2 samples.

Results

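Sd5 is a spermatid cluster of the adult mouse testis that stands between the round spermatid cluster Sd4 and the later cluster Sd6 in the authors' numbering. Its members were taken from the cell table that accompanies the single-cell RNA sequencing (scRNA-seq) data, as every cell whose subtype is Sd5, with cells of the wild-type library (WT) and of the Tex13a-deleted library (KO) kept apart. The cluster held 289 of 5170 WT cells (5.59%, exact binomial 95% interval 4.98 to 6.25) and 354 of 7238 KO cells (4.89%, 4.41 to 5.41), or 643 of 12408 cells in all. Both groups were adult mice of strain C57BL/6, which the methods give as C57BL/6N. The KO mice had lost all reading frames of Tex13a, an X-linked testis gene, by CRISPR/Cas9 deletion, and the WT mice carried the intact gene. For each genotype, 1 library was made from collagenase I digests of the testes of 3 mice, pooled, so that differences between genotypes have no replicate check and cannot be told apart from differences between these libraries. The symbol Tex13a can stand for more than 1 row of the count matrix, and the library labels were therefore not checked with it here.

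Spermatids are haploid germ cells that change from round cells into sperm without dividing. During this change the acrosome spreads over the nucleus, the tail is assembled, the manchette of microtubules shapes the head, and histones are replaced first by transition proteins and then by protamines, small basic proteins that pack sperm DNA. Transcription stops before the process ends, and many mRNAs made in round spermatids, those of protamines included, are stored and translated days later. Hemgn (hemogen) encodes a nuclear protein first known from blood progenitors and also made in the testis. Cdyl encodes a chromodomain protein that binds methylated histone H3 and acts on histone acylation in elongating spermatids.

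The Sd5 cells held 2739709 unique molecular identifiers (UMIs) in WT and 3247674 in KO. Their median was 7633 UMIs per cell in WT and 7426 in KO, against 8976 and 8911 in Sd4 and 5671.5 and 5490 in Sd6. The median number of genes detected per cell was 2157 and 2110 in Sd5, between 3041 and 3009 in Sd4 and 1618 and 1622.5 in Sd6. No cell barcode was shared by the libraries (0 of 289 and 354 Sd5 cells). UMIs were summed over the cells of a cluster in a library and scaled so that all genes of a cluster sum to 1000000 (CPM). Intervals are exact 95% intervals of counting error and do not cover variation between mice. Symbols were used where 1 row of the matrix was possible, which covered 89.5% of the Sd5 UMIs in WT and 89.6% in KO. Since the clusters were made from these genes, values of Sd5 beside Sd4 and Sd6 are a description with no test.

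Hemgn, the gene that gives the cluster its label, was far higher in Sd5 than in any other cluster of both libraries. Its level in WT was 3.86 CPM in Sd3, 226 in Sd4, 856 in Sd5 (822 to 892), 194 in Sd6 and 44.5 in Sd7. In KO the same clusters had 6.52, 258, 819 (788 to 850), 173 and 53.0 CPM. The Sd5 level was thus 3.78-fold that of Sd4 and 4.41-fold that of Sd6 in WT. Hemgn (ENSMUSG00000028332.13) lies on the minus strand of chromosome 4 from 46393989 to 46413506 in GRCm38.

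Cdyl marked Sd5 and Sd6 together rather than Sd5 alone. In WT it had 44.7 CPM in Sd3, 375 in Sd4, 838 in Sd5 (804 to 873), 842 in Sd6 and 266 in Sd7, and the log2 ratio of Sd5 to Sd6 was -0.01 (-0.09 to 0.08). In KO the values were 47.2, 442, 955 (922 to 989), 883 (850 to 917) and 287 CPM, so that the intervals of Sd5 and Sd6 did not overlap in KO. Cdyl (ENSMUSG00000059288.14) lies on the plus strand of chromosome 13 from 35659833 to 35874063. Both markers had at least 1 UMI in 276 of 289 WT cells (95.5%) and 340 of 354 KO cells (96.0%), and no Sd5 cell lacked both. After each cell was thinned to 3000 UMIs, which left out no cell of Sd4, Sd5 or Sd6, both were seen in 76.1% of WT cells (70.8 to 80.9) and 82.8% of KO cells (78.4 to 86.6). The thinned shares were 28.2% and 38.5% in Sd4 and 36.1% and 34.7% in Sd6. Free RNA can give UMIs in cells that do not express a gene. In spermatogonia (Sg), with a median depth of 6133 UMIs in WT and 5859 in KO, 11.4% of WT and 6.44% of KO cells had a Hemgn UMI before thinning. In Sd1 and Sd3 the shares were lower, at 1.75% and 2.18% in WT and 2.65% and 4.13% in KO. Whether the Hemgn UMIs of Sg came from free RNA was not tested. Blood cells also express Hemgn. The 5 macrophage and blood markers that could be read (Hba-a1, Hba-a2, Hbb-bs, Cd74 and C1qb) summed to 23.4 CPM in WT Sd5 and 20.9 in KO Sd5, with 64 UMIs in 50 of 289 cells and 68 UMIs in 59 of 354 cells, and their part in the Hemgn level was not tested.

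**Figure D1:**
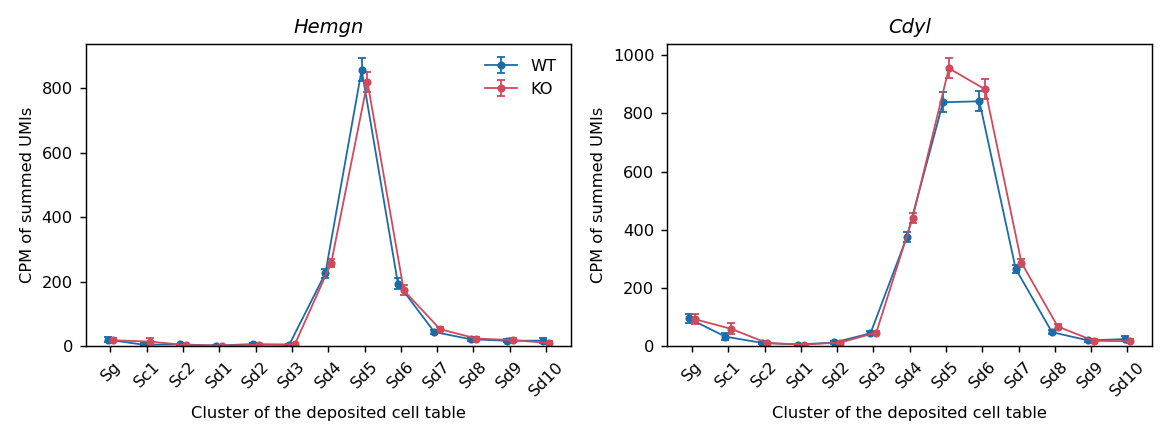
CPM of Hemgn (left) and Cdyl (right) in the 13 clusters, from spermatogonia (Sg) over spermatocytes (Sc1, Sc2) to spermatids (Sd1 to Sd10), in WT (blue) and KO (red), with exact 95% Poisson intervals of counting error. Hemgn stands at 856 and 819 CPM in Sd5 alone, while Cdyl has 838 and 955 CPM in Sd5 and 842 and 883 in Sd6.

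A small group of genes was higher in Sd5 than in both neighbouring clusters. In WT, 75 of 4410 genes (1.70%) were at least 2-fold higher in Sd5 than in both Sd4 and Sd6, and in KO 67 of 4457. The 10 genes that stood out most by the smaller of their ratios in WT, with at least 100 UMIs, were Dcdc2c, Lman2l, Fam71a, Nexn, Gm28269, Hemgn, H3f3a-ps2, Btg1-ps2, Iqcf6 and Nmt2. Their selection used the WT values and not those of KO. The KO cells were, however, placed in Sd4, Sd5 and Sd6 by a clustering of both libraries together. The KO values are therefore a description and no independent check. In KO all 10 were at least 2-fold above both neighbours, with log2 ratios from 1.08 to 2.10 over Sd4 and from 1.39 to 3.42 over Sd6.

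Dcdc2c, a member of the doublecortin family of microtubule-binding proteins, led this group. It had 51.8 CPM in Sd4, 317 in Sd5 (296 to 339) and 31.2 in Sd6 of WT, and 84.7, 364 (344 to 386) and 39.6 CPM in KO. Sd5 was 6.11-fold above Sd4 and 10.1-fold above Sd6 in WT. Dcdc2c (ENSMUSG00000020633.14) lies on the minus strand of chromosome 12 from 28437795 to 28552399. Fam71a, of a testis-expressed family that binds the Golgi GTPase Rab2, had 199, 851 (817 to 886) and 166 CPM in Sd4, Sd5 and Sd6 of WT and 267, 861 (829 to 893) and 164 CPM in KO. It stayed at a higher level than Hemgn later, with 116, 138 and 190 CPM in Sd7, Sd8 and Sd9 of WT. Nexn encodes nexilin, an actin-binding protein, and had 18.9, 110 and 26.7 CPM in WT and 25.6, 106 and 26.4 in KO. Iqcf6, which encodes a protein with an IQ calmodulin-binding motif, had 99.8, 378 and 105 CPM in WT and 117, 340 and 94.4 in KO. The predicted X-linked gene Gm28269 had 159, 602 and 140 CPM in WT and 196, 616 and 136 in KO.

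Of the other members of the group, Lman2l and Nmt2 were not particular to spermatids. Nmt2, an N-myristoyltransferase, had 242 CPM in Sd5 of WT but was highest in Sg in both libraries, where 93.6% of WT cells had a UMI, and Lman2l, a lectin of the early secretory pathway, was highest in Sc1 in both libraries. H3f3a-ps2 and Btg1-ps2, at 23.4 and 30.7 CPM in Sd5 of WT, resemble other genes of the same families, so that their reads may be shared with these and their values are uncertain.

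Among the genes with at least 100 UMIs in each library, 232 of 4813 had their highest CPM over the 13 clusters in Sd5 in both WT and KO. That is 81.4% of the 285 such genes in WT and 85.0% of the 273 in KO. The most abundant was Cypt4, a cysteine-rich protein gene of the perinuclear theca, the protein layer between the acrosome and the nuclear envelope. It had 7079, 10334 (10214 to 10455) and 3543 CPM in Sd4, Sd5 and Sd6 of WT and 7403, 10135 and 3501 in KO. Cypt genes are similar in sequence, and reads may be shared among them. Rnf151, a RING-finger protein of the acrosome, had 1948, 2790 and 936 CPM in WT. Fhl5, the LIM-domain coactivator of CREM, had 790, 1453 and 686 CPM, and Cst13, a cystatin, had 462, 1676 and 854 CPM. Spaca9, Ropn1, Kif2b, Scp2d1, Gtsf1 and 1700095A21Rik complete the 10 most abundant, with 1401 to 3140 CPM in WT Sd5. For Ropn1, the ropporin of the fibrous sheath, the margin was small, with 2986 CPM in Sd4 and 3062 in Sd5.

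**Figure D2:**
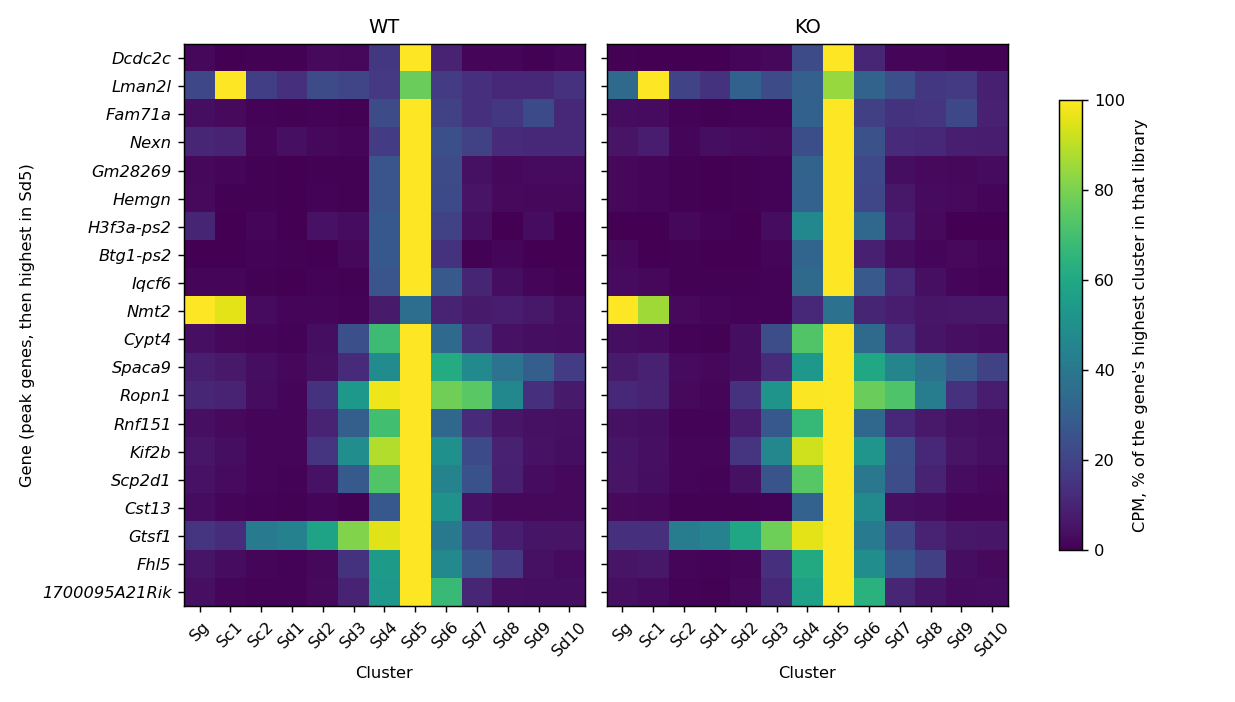
CPM of the 10 peak genes and of the 10 most abundant genes that are highest in Sd5 in both libraries, over the 13 clusters of WT (left) and KO (right), as percent of the gene's highest cluster in that library. Of the 10 peak genes, 8 are brightest in Sd5, while Lman2l is brightest in Sc1 and Nmt2 in Sg.

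The promoters of the peak genes were searched on both strands for the CREM element TGACGTCA, its core TGACG (which the full element contains) and the RFX motif GTTGCCA, in RefSeq windows from 250 bases before to 50 bases after the start on GRCm38.p6. Of the 10 genes, 7 were in the RefSeq table, with 8 windows. The core was found in 2 of the 8 windows (25%), against 20.8% of 32851 windows of all genes, and neither the full element nor the RFX motif was found. All 220 windows of the genes that were highest in Sd5 held the core in 28.6%, and 31.7% of the windows of the other genes with enough UMIs did. The matches in Dcdc2c and Iqcf6 are shown with the core in capitals (read on the opposite strand in Dcdc2c), as these are the peak promoters that carry it, 5′ to 3′ on the strand of the gene, at chr12:28552430-28552454 (minus strand) and chr9:106626573-106626597 (plus strand).
Dcdc2c: cgcccctgaaCGTCAgcgtgtgctg
Iqcf6: gtagcctaaaTGACGgatgagtgga
They start 41 and 14 bases before the annotated start. A match is a description of the letters only.

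Against Sd4, most genes had a lower CPM in Sd5, namely 3429 of 4754 in WT and 3518 of 4805 in KO, counting genes whose UMIs in both clusters came to 10 or more. In WT, 1790 of 4754 genes (37.7%) were at least 2-fold lower in Sd5 and 516 (10.9%) at least 2-fold higher. In KO, 1781 of 4805 genes (37.1%) were lower and 430 (8.95%) higher. The median log2 ratio of all genes was -0.58 in WT and -0.57 in KO, and -0.38 in both with protamine, transition protein and mitochondrial genes left out of the totals. With ratios centred on this median, 1175 genes were lower and 896 higher in WT and 1152 and 848 in KO, so that the balance of both directions depends on the scaling. Of the 4714 genes read in both libraries, 1535 were 2-fold lower in both, which is 86.5% of the WT and 88.4% of the KO genes. The 384 that were 2-fold higher in both are 74.9% of the WT and 92.5% of the KO genes. The Sd4 cells of KO held more protamine mRNA than those of WT, at 3.65% against 3.07% of UMIs, and the part of this in the lower number of higher genes in KO was not tested.

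Tex36 and the genes lowest beside Sd4 had small counts left in Sd5. Tex36, a marker gene of Sd3 and Sd4, had 890 CPM in Sd4 and 33.2 (26.7 to 40.8) in Sd5 of WT, a 26.7-fold difference, and 808 and 39.4 CPM in KO. The 10 lowest genes were Gm11872, Efhb, Prr27, Gm20268, 4930596I21Rik, Spesp1, Gm2012, Ice1, 1700041C23Rik and Tmem107. Spesp1, a protein of the equatorial segment of the acrosome, had 358 CPM in Sd4 and 4.75 in Sd5 of WT, and 335 and 10.2 in KO. Efhb, an EF-hand protein, had 686 UMIs in Sd4 and 3 in Sd5 of WT, and 976 and 14 in KO. Gm11872 had 135 UMIs in Sd4 and none in Sd5 of WT, which is at least 28.1-fold lower if 3 UMIs are taken as the limit in Sd5. In KO it had 133 and 1.

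The lists are read against the shares of all genes, 37.7% lower and 10.9% higher in WT. The axoneme and acrosome lists had larger shares of lower genes, the perinuclear theca list a smaller one. Of 53 axoneme genes read in WT, 32 (60.4%) were at least 2-fold lower in Sd5 than in Sd4 and 1 was higher, with a median log2 ratio of -1.38 (32 and 0 of 53 in KO). Enkur, a calmodulin-binding protein of the sperm tail, had 722 and 154 CPM in Sd4 and Sd5 of WT. The higher one was Dnah2, a dynein heavy chain, with only 4 and 6 UMIs and an interval of the log2 ratio from -0.81 to 3.53. Of 40 acrosome genes, 23 (57.5%) were lower and 3 higher in WT (22 and 3 in KO), with a median of -1.36. Acrv1, the acrosomal antigen SP-10, had 885 and 230 CPM, while Calr3, a testis calreticulin, had 318 and 817 CPM. Spaca9 and Hspa1l were the other two higher ones in WT. Nuclear genes for mitochondrial proteins, testis isoforms included, were lower in 13 of 19 (68.4%) and higher in 0, and Cyct, the testis cytochrome c, had 185 and 17.5 CPM.

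Of 22 perinuclear theca and actin-like genes, 5 (22.7%) were at least 2-fold higher and 2 (9.09%) lower in WT, and the same numbers held in KO. Their summed level was 18322 CPM in Sd4, 26023 in Sd5 and 19742 in Sd6 of WT, and 18478, 25495 and 18861 in KO, with Sd5 the highest of the 13 clusters in both libraries. Cypt4 alone gave 10334 of the 26023 CPM, and had 81.8, 98.0 and 25.3 UMIs per cell in Sd4, Sd5 and Sd6 of WT. Only 8 of the 22 genes in WT and 9 in KO were above Sd6, with median log2 ratios of -0.14 and -0.02. The fall of the sum from Sd5 to Sd6 was thus not shared by most of the list. The genes at least 2-fold above Sd4 were Actrt3, Capzb, Wbp2nl, Cypt14 and Cypt15 in both libraries. Actrt3, an actin-related protein of the theca that binds profilin, had 129, 643 and 277 CPM in Sd4, Sd5 and Sd6 of WT. Actl7b, another actin-like gene, went the other way with 1181, 388 and 55.5 CPM. Of 30 genes of the outer dense fibre and fibrous sheath, 3 were higher and 8 (26.7%) lower in WT with a median of 0.02, and their summed level was 32600 CPM in Sd4 and 39696 in Sd5. Tekt4, a tektin of the flagellar microtubules, was among the lower ones with 392 and 36.9 CPM. Akap4, the main scaffold of the fibrous sheath, had 356 and 745 CPM in Sd4 and Sd5, and Smcp, a protein of the mitochondrial capsule, 5621 and 8981 CPM. Of 32 genes of the manchette and nuclear envelope, 3 were higher and 12 lower in WT (2 and 12 in KO), and the lower ones are 37.5%, close to the share of all genes. Spem1, needed to shed the cytoplasm, had 161 and 428 CPM, and Fam209 had 1727 and 389 CPM.

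Genes of chromatin had no common direction. Of 6 genes for spermatid linker histones and HMG proteins, 3 were at least 2-fold higher and 1 lower in WT, while in KO 0 were higher and 1 lower. Hmgb4 had 3120 and 6346 CPM in Sd4 and Sd5 of WT and 3773 and 7161 in KO, and H1fnt, a spermatid linker histone, had 526 and 1125 in WT and 547 and 1040 in KO, so that both lie close to the 2-fold limit. Of 18 genes for histone exchange and chromatin regulation, 1 (5.56%) was higher and 5 (27.8%) lower in WT (1 and 6 in KO), both below the shares of all genes. The higher one was Cdyl itself. Among the lower ones were Hdac1, a histone deacetylase, with 110 and 10.2 CPM, Brd2, a bromodomain protein, with 149 and 17.9 CPM, and Morf4l1, a chromodomain protein of acetyltransferase complexes, with 2105 and 819 CPM. Chd5, a remodeler needed for histone exchange, had 605 and 562 CPM, and Phf7, an E3 ligase for histones, 1274 and 1251.

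Of 14 spermatid transcription factor genes, 0 were at least 2-fold higher and 5 lower in WT (0 and 6 in KO), and the lower ones are 35.7%, close to the 37.7% of all genes. Crem, the activator of haploid genes, had 537 and 105 CPM in Sd4 and Sd5 of WT, Sox5 791 and 123, and Tbpl1, a TBP-like factor, 232 and 18.3. Sox30, another haploid regulator, had 139 and 160 CPM. Of 25 genes for mRNA storage and translation, 1 was higher and 10 lower in WT (1 and 12 in KO), which is 40% lower beside the 37.7% of all genes. The higher one was Eif4e, the cap-binding protein, with 348, 1104 and 1157 CPM in Sd4, Sd5 and Sd6 of WT and 427, 1108 and 1157 in KO. Pabpc1, the poly(A)-binding protein, had 5067, 1900 and 331 CPM in WT and 4894, 1793 and 380 in KO. Ybx2, a Y-box protein that stores spermatid mRNA, had 681, 632 and 808 CPM.

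Of 22 late spermatid genes, which include Prm2 and Tnp2, 9 (40.9%) were at least 2-fold higher in Sd5 than in Sd4 and 0 lower in each library, with 17 of 22 above 0 on the log2 scale and a median log2 ratio of 0.83 in WT and 0.72 in KO. Of 18 genes listed as early round spermatid genes, 2 were higher and 11 (61.1%) lower in each library. Their summed level was 12937 CPM in Sd4 and 9887 in Sd5 of WT, but was highest in Sd10, at 17054 CPM. In KO it was 12305, 9595 and 15822 CPM in the same clusters, so the name of the list does not describe the course of its sum. At least 2-fold above Sd6 were 11 of the 18 in WT (61.1%) and 12 in KO (66.7%), beside 17.3% and 16.0% of all genes. The 2 higher ones were Cst13 and the kinase gene Tssk6. Of 32 genes carried over from meiosis that could be read, 0 were higher and 17 (53.1%) lower in WT (0 and 18 in KO), and of 71 ribosomal protein genes 0 and 9 (12.7%), with 0 and 8 in KO. Among 19 sperm glycolysis genes 1 was higher and 3 lower in each library, the higher one being Gpi1, glucose-6-phosphate isomerase. For chaperones the numbers were 3 and 9 of 29 in WT and 2 and 10 in KO, for ubiquitin and proteasome genes 3 and 13 of 42 and 1 and 15, and for testis kinases 2 and 4 of 14 and 1 and 3. The shares of lower genes in WT were 31.0% for both chaperones and ubiquitin and proteasome genes and 28.6% for kinases, all under the 37.7% of all genes. Of the 3 CCR4-NOT genes all 3 were lower in each library. Of the 30 mitochondrially encoded genes, 17 had no UMI in Sd5 of WT and 16 none in KO, with mt-Atp6, mt-Co2 and mt-Co3 at 0 in both. Why these genes had no UMI was not tested, and their zeros are not read as a trait of Sd5. None of the 8 that could be read in WT was 2-fold apart.

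The genes that were highest beside Sd4 fell into a kind that stayed high and a kind that did not. Among those with the largest ratio were Gm30302, 1700048M11Rik, BC031181, Cyp2a12, Gm29585, 1700084D21Rik, Prss51, Cby3 and Mphosph6, with log2 ratios from 3.15 to 3.53 in WT and of at least 2.66 in KO. Cyp2a12, a cytochrome P450 gene, had 17.3, 181, 230 and 258 CPM in Sd4, Sd5, Sd6 and Sd7 of WT. BC031181 had 10.5, 112, 32.3 and 7.78 CPM. In WT, 434 of 4410 genes were 2-fold above Sd4 and within 2-fold of Sd6, against the 75 that were above both and 4 that were above Sd4 but 2-fold below Sd6. In KO the numbers were 355, 67 and 3 of 4457.

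Against Sd6, the differences were mainly genes with a higher level in Sd5. In WT, 766 of 4435 genes (17.3%) were at least 2-fold higher in Sd5 and 75 (1.69%) lower. In KO, 715 of 4465 (16.0%) were higher and 87 (1.95%) lower. Of the 4352 genes read in both libraries, 514 were higher in both, 68.7% of the WT and 74.7% of the KO genes. Only 14 were lower in both, 24.1% of the WT and 18.2% of the KO genes. The median log2 ratio was 0.14 in WT and 0.12 in KO. A step down on both sides was common, since 404 of 4410 genes in WT (9.16%) and 337 of 4457 in KO (7.56%) were 2-fold below Sd4 and 2-fold above Sd6.

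The 10 genes furthest above Sd6 were Cldn34c4, Nup43, Spata9, Pex5l, Arf4, Gm7073, Fam209, Rbms1, Klf4 and Acrv1. Spata9 had 478, 133 and 10.8 CPM in Sd4, Sd5 and Sd6 of WT and 447, 145 and 8.91 in KO, and Acrv1 885, 230 and 21.9 CPM in WT. Pex5l and Arf4, a small GTPase of the Golgi, had a level in Sd5 near that of Sd4 and were far lower in Sd6, with 529, 725 and 61.4 CPM and 850, 619 and 52.7 CPM. Slc16a7, a monocarboxylate transporter, likewise had 441, 640 and 117 CPM. Of the 40 acrosome genes, 18 (45%) were at least 2-fold above Sd6 in WT and 16 (40%) in KO, beside 17.3% and 16.0% of all genes. The axoneme genes were nearer these shares of all genes, with 12 of 52 (23.1%) in WT and 11 of 53 (20.8%) in KO.

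Few genes were below Sd6, and those that stood out had small counts in Sd5. The 5 macrophage and blood markers, globin genes among them, had 617 UMIs in Sd6 of WT against 64 in Sd5. In KO they had 180 and 68. Their sum was also high in some later clusters, at 577 CPM in Sd9 of WT and 812 in Sd8 of KO. The globin genes Hba-a2, Hba-a1 and Hbb-bs had 58.6, 77.4 and 59.3 CPM in Sd6 of WT and 0.365, 3.29 and 4.02 in Sd5, but 9.90, 13.2 and 15.8 in Sd6 of KO. The globin copies are near-identical, so their separate values are uncertain. The other 7 of the lowest 10 were Gm11872, Arl6, Efhb, Glmn, Gm2012, 4930596I21Rik and Tpst1, at 0.694 to 5.90 CPM in Sd6 of WT. These genes were lower in Sd5 than in both neighbours in WT, yet in KO the Sd5 level of Arl6 was 3.39 against 2.97 CPM in Sd6 and that of Glmn 6.77 against 6.27. Ndufb3, Ice1 and Spesp1 complete the 10 genes with the lowest Sd5 values, and only Gm2012 and Ndufb3 of the 10 were more than 2-fold below Sd6 in KO too.

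**Figure D3:**
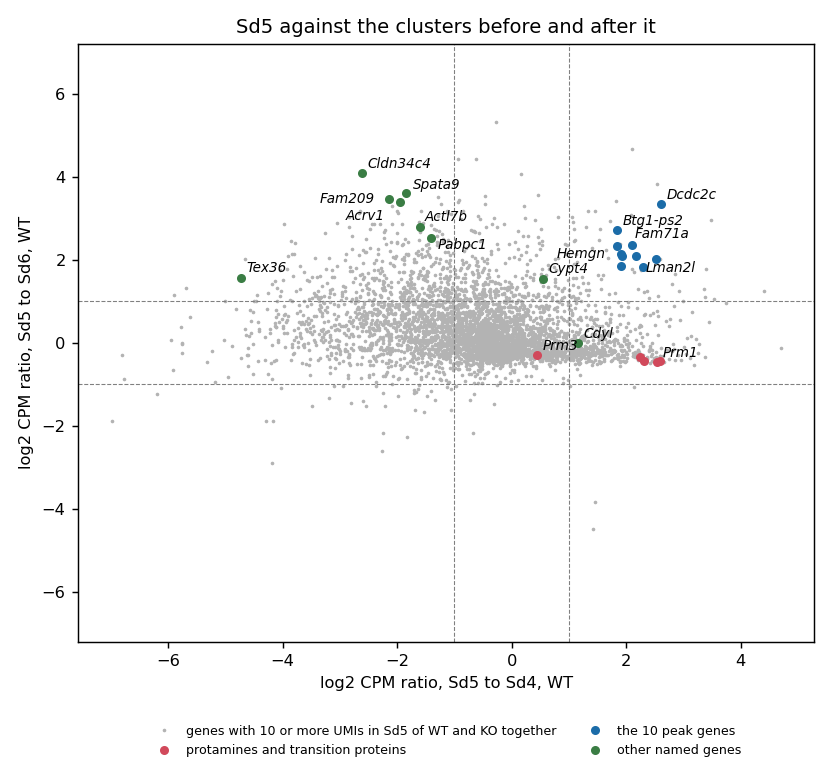
Each point is a gene with at least 10 UMIs in the Sd5 cells of both libraries together, placed by its log2 CPM ratio of Sd5 to Sd4 (horizontal axis) and of Sd5 to Sd6 (vertical axis) in WT, with dashed lines at 2-fold. The 10 peak genes lie at the upper right, Prm1 at 2.54 and -0.47, and genes on their way down such as Spata9 at -1.84 and 3.61.

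The protamine and transition protein genes were already abundant in every Sd5 cell, so that their first increase lay before Sd5. Prm1, Prm2, Prm3, Tnp1 and Tnp2 together took 15.7% of the Sd5 UMIs in WT (15.6 to 15.7) and 15.4% in KO, against 3.07% and 3.65% in Sd4 and 21.2% and 20.9% in Sd6. Per cell the share had a lowest value of 10.04%, a median of 16.6% and a highest value of 22.6% in WT Sd5, and of 9.16%, 16.5% and 23.9% in KO. In Sd4 the median was 1.59% in WT and 2.72% in KO, with highest values of 14.2% and 15.1%. A share above 5% was found in 26.6% of WT and 34.8% of KO Sd4 cells and in 100% of Sd5 cells. Clusters before the haploid stage also held these UMIs, 3.86% and 3.84% in Sg and 4.07% and 4.30% in Sc1 of WT and KO, with medians per cell of 0.647 to 0.790%. In Sd1 the share was 0.717% and 0.644%.

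Counted per cell, the amount of these mRNAs in Sd5 was close to that of Sd6. The 5 genes gave a mean of 355 UMIs per cell in Sd4, 1485 in Sd5, 1510 in Sd6 and 1846 in Sd7 of WT. The KO means were 420, 1410, 1407 and 1673. All other genes together gave 11204, 7995, 5624 and 5501 UMIs per cell in WT and 11090, 7765, 5325 and 5109 in KO. The higher share in Sd6 than in Sd5 thus went with fewer UMIs of other genes and not with more UMIs of the 5 genes. Fewer mRNA molecules in a cell and less complete capture of them cannot be told apart from these counts.

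The genes of the group did not move alike. Prm1 (ENSMUSG00000022501.6, chromosome 16, minus strand, 10796326 to 10805839) had 156, 747 and 779 UMIs per cell in Sd4, Sd5 and Sd6 of WT and 192, 717 and 735 in KO. Tnp1 had 71.7, 293 and 297 in WT, Prm2 66.4, 258 and 247, and Tnp2 31.1, 154 and 156. Prm3, whose product is an acidic protein and not a DNA-packing protamine, had 29.5, 32.9 and 30.5 UMIs per cell and was thus already near its Sd5 amount in Sd4. It gave 8.31% of the UMIs of the 5 genes in Sd4 of WT and 2.22% in Sd5, where Prm1 gave 50.3%, Tnp1 19.7%, Prm2 17.4% and Tnp2 10.4%. In CPM, 4 of the 5 genes were at least 2-fold above Sd4 in both libraries and none was 2-fold apart from Sd6.

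**Figure D4:**
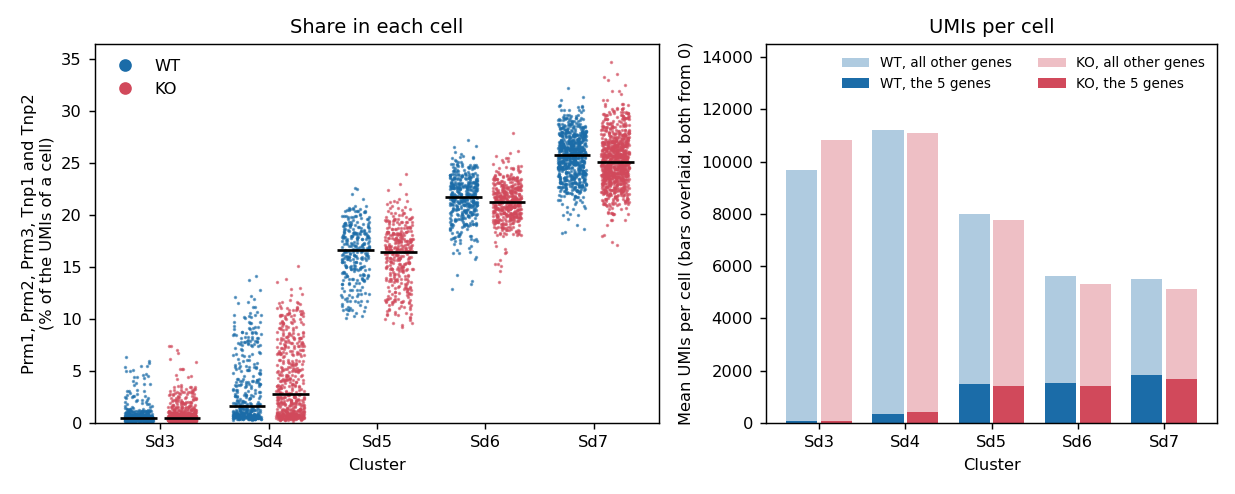
Left, share of each cell's UMIs that came from Prm1, Prm2, Prm3, Tnp1 and Tnp2, 1 point per cell, with the median as a black line, in Sd3 to Sd7 of WT (blue) and KO (red). Right, mean UMIs per cell of these 5 genes (dark bars) and of all other genes (pale bars, overlaid, both from 0), where the 5 genes stand at 1485 and 1510 UMIs per cell in Sd5 and Sd6 of WT while the other genes go from 7995 to 5624.

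Sd5 was not uniform, and its cells were ranked by this share to describe the range. A quartile of such a score is a range of cells, not a cell type, and the share itself is no result of the ranking. The quartiles ran from 10.04 to 14.5%, 14.6 to 16.6%, 16.6 to 18.3% and 18.4 to 22.6% in WT. The median of other UMIs per cell was 8674, 7871.5, 5333 and 5184 from the lowest to the highest quartile in WT, and 8597, 6906, 5440.5 and 5144.5 in KO. The 5 genes had mean UMIs per cell of 1596, 1615, 1335 and 1392 in WT, and 1425, 1447, 1366 and 1399 in KO. Since the other UMIs are most of the denominator of the share, ranking by it also ranks by them, and nothing is read from their order. Levels in quartiles are UMIs of a gene per 1000000 UMIs of all genes but the 5, and are not on the scale of the CPM above.

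The transcripts that were lowest in the highest quartile included the translation genes Pabpc1 and Eif2s2 and the acrosome gene Tmem190. Pabpc1 had a level of 3884 in the lowest and 415 in the highest quartile of WT, a log2 ratio of -3.23 (-3.46 to -3.01), and 3818 and 506 in KO (-2.92, -3.10 to -2.73). Eif2s2, a subunit of initiation factor eIF2, had levels of 154 and 12.1 in WT, or 126 and 5 UMIs, and 146 and 48.8 in KO. Tmem190 had 430 and 38.8 in WT and Acrv1, not among the 10 lowest, 513 and 60.6. The 10 lowest, with 1700028P14Rik, AC121965.1, Tmem161b, Spata45, Gm11837, Ankrd7 and Fyb beside Pabpc1, Eif2s2 and Tmem190, had log2 ratios from -4.08 to -3.14 in WT and from -3.58 to -1.57 in KO.

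The peak genes differed among themselves on this scale. Nexn had a level of 197 in the lowest and 58.2 in the highest quartile of WT and 202 and 48.8 in KO. Fam71a had 1131 and 679 in WT and 1221 and 589 in KO, Dcdc2c 423 and 269 in WT and 543 and 258 in KO, and Hemgn 1072 and 839 in WT and 1041 and 710 in KO. Gm28269 had 591 and 827 in WT and 592 and 822 in KO, and Cdyl 841 and 1115 in WT and 1048 and 1165 in KO. Nexn, Fam71a, Dcdc2c and Hemgn were lower in the highest quartile on the 3 scales tried. In UMIs per cell Hemgn had 12.04 and 4.81 in WT and 10.97 and 4.14 in KO. All genes but the 5 together had means of 11237.5 and 5728.5 UMIs per cell in WT and 10536 and 5822 in KO. The ranking itself lowers values of the highest quartile in UMIs per cell and with the 5 genes in the total. These scales therefore do not check the direction. The direction of Gm28269 and Cdyl depends on the scale. With the 5 genes in the total Cdyl had 923 and 939 CPM in KO, a log2 ratio of 0.02 (-0.12 to 0.17), and in UMIs per cell it had 9.45 and 6.39 in WT and 11.04 and 6.78 in KO. Gm28269 had 6.64 and 4.74 UMIs per cell in WT and 6.24 and 4.78 in KO. The 10 genes highest in the top quartile had smaller ratios, with log2 values from 0.89 to 1.14 in WT and from -0.05 to 0.93 in KO. Among them, Cyp2a12 had 152 and 313 in WT and 152 and 269 in KO, and 1.71 and 1.79 UMIs per cell in WT and 1.61 and 1.57 in KO.

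The Sd5 cells of KO closely matched those of WT in the counts. The authors integrated and clustered the cells of both libraries together, and the part of this in the match was not tested. Of 4469 genes with at least 10 UMIs in both together, 79 (1.77%) were at least 2-fold higher in KO and 103 (2.30%) lower, and the median log2 ratio was 0.00. With a minimum of 50 UMIs, 10 of 3496 genes were higher and 7 lower, so that most of these differences were in genes with few UMIs. Hemgn had a log2 ratio of KO to WT of -0.06 (-0.15 to 0.02), Cdyl of 0.19 (0.11 to 0.27) and Prm1 of -0.01. Of the 40 acrosome genes and the 53 axoneme genes, 0 were 2-fold apart in either direction, which is close to the 1.77% and 2.30% of all genes. CCR4-NOT is the deadenylase complex that shortens poly(A) tails. Of its 11 listed genes only 3 could be read, Cnot1 not among them, with 64 UMIs in WT and 63 in KO for the 3 together. Cnot4 had 18.6 and 12.6 CPM, Cnot6 2.92 and 1.85, and Cnot2 1.83 and 4.93 in WT and KO, so that their ratios rest on small counts.

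The largest difference was in 1700030C10Rik, a noncoding transcript on the minus strand of chromosome 12, with 14 UMIs in WT Sd5 and 219 in KO Sd5. This is 5.11 CPM (2.79 to 8.57) and 67.4 CPM (58.8 to 77.0), a 12.8-fold difference. It was not limited to Sd5, since the gene had 0.203 to 4.57 CPM in Sd3, Sd4, Sd6 and Sd7 of WT and 16.6 to 85.5 CPM in the same clusters of KO. The annotation gives this symbol to 2 overlapping entries, a processed transcript from 20804381 to 20815779 (ENSMUSG00000099759.1) and a pseudogene from 20814257 to 20815727 (ENSMUSG00000091071.2), and the counts cannot be divided between them. The other 9 of the 10 highest were Oxr1, Cep126, B230398E01Rik, Kif20b, Dst, Lhx2, Rev3l, Gm10762 and Cfap44, with log2 ratios from 0.72 to 0.92, all under 2-fold.

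The 10 lowest in KO were Ncl, mt-Cytb, Tmed6, Tex101, Cdk11b, 1700049E22Rik, mt-Nd2, Sycp3, Sub1 and Cldn13, with log2 ratios from -1.05 to -0.72. Ncl (nucleolin) had 28.8 CPM in WT and 13.9 in KO, and mt-Cytb 66.4 and 32.6. Ncl, Tex101, a membrane protein of spermatocytes, and Sycp3, of the synaptonemal complex, had their highest level outside the spermatid clusters. Summed markers of earlier germ cells were also lower in KO. The 3 spermatogonial markers that could be read (Ncl, Stra8 and Dazl) summed to 60.2 CPM in WT Sd5 and 22.5 in KO, and all 3 were at least 2-fold lower in KO. They had 165 UMIs in 67 of 289 WT cells and 73 UMIs in 60 of 354 KO cells. The most in 1 cell was 24 UMIs in WT and 4 in KO. The 12 spermatocyte markers summed to 134 and 106 CPM, but of the 11 with enough UMIs only 1 was at least 2-fold lower in KO. Their median log2 ratio of KO to WT was -0.10, and 3 of the 11 were above 0. The Sertoli markers Aard and Ctsl, whose sum was highest in Sc1, summed to 15.3 and 4.31 CPM. None of these genes was at 0 in either library. Without the 5% of cells with most UMIs, the spermatogonial sums were 68.0 and 24.0 CPM. The part of these cells in the lower values of KO was not tested. The median share of mitochondrial UMIs per cell was 0.154% in WT and 0.213% in KO.

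**Figure D5:**
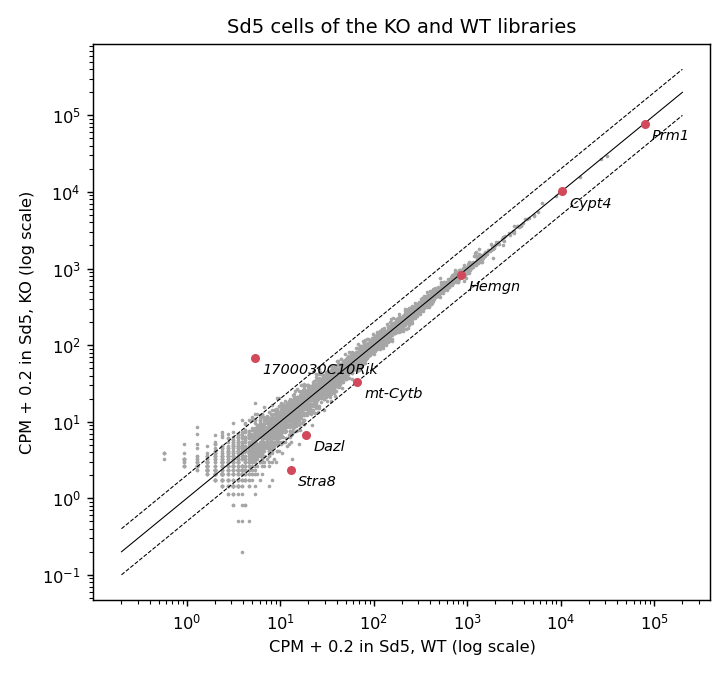
CPM in the Sd5 cells of WT (horizontal axis) and KO (vertical axis), both on a log scale with 0.2 added, 1 point per gene, with a full line at equal levels and dashed lines at 2-fold. Hemgn, Cypt4 and Prm1 lie on the full line, 1700030C10Rik at 5.11 and 67.4 CPM lies above it, and Stra8, Dazl and mt-Cytb lie below.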

How the data were processed

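Whole testis cells gave 1 scRNA-seq library for each genotype. Per the submitters' processing notes and the methods, the authors trimmed the reads with fastp, aligned them to mm10 (GRCm38) with STAR 2.5.3a, assigned them to Ensembl genes with featureCounts 1.6.2, and filtered, integrated and clustered the cells with Seurat 3.2.3. The deposited matrix holds raw UMI counts, and the deposited cell table holds each cell's cluster, UMI count and percent of mitochondrial UMIs. The table also holds a score, the UMI total after correction by the authors, which was not used here. No cell was filtered and no doublets were called.

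The matrix has 26758 rows, and the deposited symbols number 25065. Rows were anchored by the 30 mitochondrial symbols, whose UMIs gave the mitochondrial percent exactly in 12408 of 12408 cells, and a row could lack a symbol if fewer than 5 cells had a UMI there. This left 5476 symbols with 1 possible row. UMIs were summed per library and cluster with Python 3.11.15, numpy 2.4.6 and scipy 1.17.1. Log2 ratios have a prior of 1 UMI shared in proportion to depth. Intervals are exact Poisson or binomial (Clopper-Pearson) 95% intervals of counting error, and a count of 0 is given the limit of 3 UMIs. With 1 library per genotype no test was made. The scripts were tested on simulated data.

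The Sd5 cells, the markers and the gene lists, compiled by hand from general knowledge, were chosen with earlier results of these data known. Named genes are the markers and list members, the 10 genes with the highest and lowest values of each comparison among those with at least 100 UMIs, the 10 with most UMIs (Prm1, Tnp1, Prm2, Tnp2, Cypt4, Smcp, Hmgb4, Oaz3, Ldhc and Meig1) and the 10 most abundant genes highest in Sd5. Gene positions are from the GENCODE annotation of GRCm38. Alternatives were centred ratios, other totals, the mean of single-cell CPM, other minimums and priors, thinned cells and the deepest 5% of cells left out. A gene that the naming rule selected is not reported here.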

Additional observations from a re-analysis of the deposited data

Results flagged for a closer look

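The mitochondrially encoded gene mt-Nd2, a subunit of complex I, was higher in Sd5 than in Sd4 in WT and lower in KO. It had 87 UMIs in Sd5 and 94 in Sd4 of WT, a log2 ratio of 0.56 (0.13 to 1.002), and 59 and 151 UMIs in KO, a log2 ratio of -0.47 (-0.93 to -0.03). Both intervals cover counting error only, the difference between the libraries was not tested, and each library is a single pool of mice. No library could be compared with others of its genotype.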

How the results depend on the processing

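No paired analysis was possible because each genotype has 1 library. Of 3080 ratios of 88 named genes under alternative settings, 2 turned the direction of a difference that was at least 2-fold as reported, and 631 moved outside their counting interval, 186 of them as UMIs per cell and 176 when centred. The 2, with cells thinned to 3000 UMIs, were Tpst1 in Sd5 against Sd6 of WT (log2 1.09) and Hbb-bs in Sd5 against Sd4 of WT (-0.45), both with few UMIs. Centring the ratios gave 896 higher and 1175 lower genes in Sd5 against Sd4 of WT and 848 and 1152 in KO. Genes lower than in Sd6 numbered 5 in WT and 8 in KO with a minimum of 50 UMIs, 270 and 269 with no minimum, and 23 and 21 with a prior of 10 UMIs. Genes higher and lower in KO than in WT numbered 10 and 7 with a minimum of 50 UMIs, 271 and 336 with no minimum, and 23 and 33 with a prior of 10 UMIs. Counted as UMIs per cell, a setting chosen after seeing the data, 283 genes were higher than in Sd4 of KO, 1271 higher and 36 lower than in Sd6 of WT, and 1274 and 25 in KO. The quartile levels of Sd5 cells in UMIs per cell or with the 5 protamine and transition protein genes in the total were also added after seeing the data. As a share of Sd1 to Sd10 cells, Sd5 was 6.67% in WT and 5.86% in KO. The protamine and transition protein share was 16.4% and 16.0% as the mean of single cells, and 16.2% and 15.7% without the deepest cells. Its interquartile range among Sd5 cells was 3.79 percentage points in WT and 4.22 in KO, and 3.97 and 4.24 in thinned cells. Depth limits genes with few UMIs, and the variation between mice was not measured.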
